A study of Mus musculus with 2 samples.

Results

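The mesothelial cells of the Tom- library were 1887 of the 6717 cells of that library that passed the quality limits, or 28.1% (exact binomial 95% interval 27.0 to 29.2), out of 10241 passing cells in the whole series. They were chosen by their own counts: a barcode had to have more than 1000 and fewer than 7000 detected genes, under 8% of its UMIs (unique molecular identifiers, each standing for 1 captured RNA molecule) from mitochondrial genes, and at least 10 UMIs summed over Msln, Upk3b, Krt19, Lrrn4 and Upk1b. The other 4830 passing cells of the library served as the comparison. The same rule found 250 such cells among 3524 passing cells of the Tom+ library (7.09%, 6.27 to 7.99).

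The cells came from gonadal white adipose tissue (gWAT) of male mice 18 months of age that carried p16-CreERT2 and Rosa26-LSL-tdTomato. In this reporter the p16 gene drives a Cre recombinase that is activated by tamoxifen and then turns on tdTomato for good, so all cells of both libraries come from tamoxifen-treated animals, and the Tom- gate holds cells in which the reporter was not seen. Cells negative for CD31 (an endothelial protein) and CD45 (an immune protein) were sorted by tdTomato, and 1 droplet library was made from each gate. How many mice were pooled was not given in the sources used here. With 1 library per gate there was no replicate, so no test was made, and each interval covers counting error only. The mesothelial cells held 32355904 UMIs (median 14753 per cell, 3950 genes, 3.18% mitochondrial UMIs) and the other cells 58070911 (median 11254.5).

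The mesothelium is the single layer of flat cells that covers the peritoneal organs and the visceral fat depots. It is epithelial in its keratins and junctions, but derives from mesoderm, and its apical microvilli and glycocalyx keep the surfaces that slide against each other from sticking. Mesothelin (Msln) and mucin 16 (Muc16) are surface glycoproteins that bind each other, the uroplakins Upk3b and Upk1b are membrane proteins first known from the bladder lining, Krt19 is an epithelial keratin and Lrrn4 a leucine-rich repeat membrane protein.

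The marker sum split the library with few cells between the extremes. No marker UMI was found in 3519 cells and 1 in 1041, while 1673 cells had 30 or more, and the members ranged from 10 to 424 with a median of 68. Just outside the limit were 30 cells with 5 to 9 marker UMIs (median 3316.5 UMIs in all), and just inside were 36 cells with 10 to 14 (median 6446). All 5 markers were present in 1712 members (90.7%), and 4 members had only 2.

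**Figure D1:**
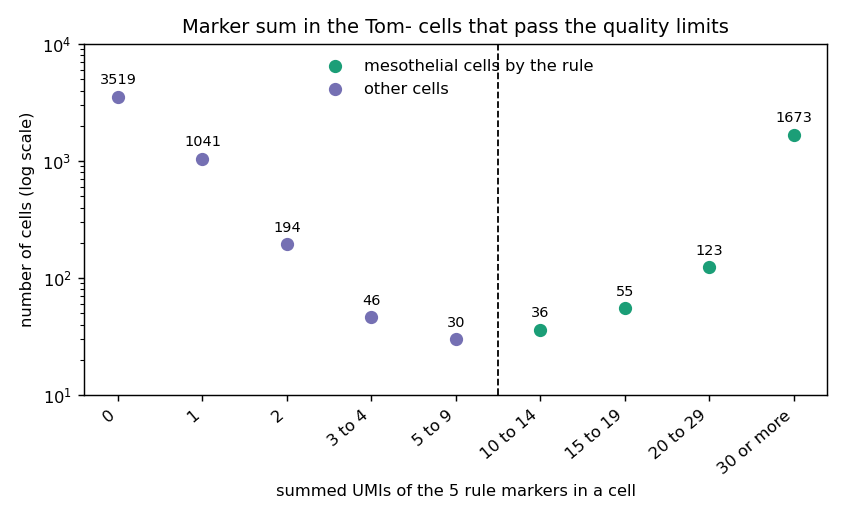
Number of Tom- cells that pass the quality limits (log scale) by the summed UMIs of the 5 rule markers, with the members right of the dashed line and the other cells left of it. Counts fall from 3519 cells at 0 to 30 cells at 5 to 9 UMIs and rise again to 1673 cells at 30 or more.

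Promoters of 2 genes are shown because Upk3b and Lrrn4 are the rule markers for which RefSeq start regions were at hand. Each line gives the 250 bases upstream of the start site on the gene's own strand, in GRCm38.p6, with capitals where a script found GGAATG, the core that TEAD factors bind, or its reverse complement CATTCC. The Upk3b region is chr5:136038246-136038495 on the plus strand, and the Lrrn4 region is chr2:132880863-132881112 on the minus strand.
Upk3b: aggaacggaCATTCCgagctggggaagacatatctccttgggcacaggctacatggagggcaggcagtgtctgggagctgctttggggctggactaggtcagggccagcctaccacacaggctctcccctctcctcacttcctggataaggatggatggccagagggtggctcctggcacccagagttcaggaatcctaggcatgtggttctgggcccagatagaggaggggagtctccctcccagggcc
Lrrn4: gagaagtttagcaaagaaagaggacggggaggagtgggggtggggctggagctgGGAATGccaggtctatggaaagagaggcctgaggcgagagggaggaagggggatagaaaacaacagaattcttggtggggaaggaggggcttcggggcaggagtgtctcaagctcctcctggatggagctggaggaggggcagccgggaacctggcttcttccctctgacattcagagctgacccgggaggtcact
Of 32851 promoters in the table, 12.6% held GGAATG on either strand in these 250 bases, and 13.8% of the 1185 promoters that matched 888 of the 1194 genes at least 2-fold higher in the mesothelial cells did, against 10.8% of the promoters of all tested genes. The genes at least 2-fold lower had it in 11.9% of their promoters, and counted per gene it was found for 16.4% of the higher, 15.9% of the lower and 12.9% of all tested genes, so nothing particular to the higher genes is read from it. GCGTGGG, the core shared by EGR1 and WT1, was in 4.30% of all promoters and in 6.24% of those of the higher genes and 7.04% of those of the lower genes, against 7.34% of the promoters of all tested genes, and in neither of the 2 regions shown. A match is a run of letters and not a bound site.

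Before the results, 3 features of the members have to be stated. In the first place, 2224 barcodes were listed in both libraries, among them those of 207 members (10.97%) and of 77 other cells (1.59%). The shared members held a median of 33369 UMIs as Tom- cells and 637 under the same barcode of the other library, a median of 1.85% per barcode. Their rule markers took 50.6 and 52.6 of 10000 UMIs there. Of the 207, 4 also passed the limits in the Tom+ library. Scrublet, which scores droplets that look like a pair of cells, called 104 members (5.51%) and 18 other cells (0.373%). Of these 104, 101 sat in a group of 135 members, sub-cluster 4 below. In it 19 of 30 genes of adipocyte progenitors were at least 2-fold above their level in the other members. Over all genes compared this was 588 of 10048. The progenitor list summed to 9468 CPM in sub-cluster 4, to 4983 CPM in the other members and to 14164 CPM in the other cells. The ratios of members over other cells of the Tom- library were therefore also computed without some of these cells. Leaving out sub-cluster 4 and all doublet calls left 1749 members, and leaving out the barcodes found in both libraries left 1680.

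The 6 markers given for the cell type were all far higher in the members than in the other cells, the first 5 because the members were chosen on them. Msln (chromosome 17, 25748613 to 25754378 in mm10) was at 1020 CPM (counts per 1000000 UMIs) in the members, 1009 to 1031, and at 4.89 CPM in the other cells. Upk3b was at 1843 against 11.99 CPM, Upk1b at 864 against 7.51, Krt19 at 661 against 4.18 and Lrrn4 at 408 against 2.26. Muc16, on which no cell was selected, was at 219 CPM (214 to 225) in the members and 1.48 in the other cells, a log2 ratio of 7.21 (6.90 to 7.53). In the 250 mesothelial cells of the Tom+ library Msln was at 1041 CPM, Upk3b at 1873 and Muc16 at 231.

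To compare cells of unequal depth, each was thinned to 8833 UMIs, which kept 1698 members and 3721 other cells. A Muc16 UMI was then found in 74.97% of the members (72.8 to 77.0; 84.9% unthinned) and in 1.05% of the other cells. Upk3b was found in 99.8% of the thinned members and 8.65% of the thinned other cells, and Msln in 95.8% and 4.08%. The 4969 barcodes with 1000 or fewer genes, which were not counted as cells, held the 5 markers at 657 CPM together, and the part of RNA from outside the cells in these shares was not tested.

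A gene was tested where its level averaged 5 CPM or more over both groups. Of 10018 such genes, 1194 (11.9%) were at least 2-fold higher in the mesothelial cells and 922 (9.2%) at least 2-fold lower. The rule used counts of the same cells, so these shares are a description of identity. The median log2 ratio over the tested genes was 0.14, and on a median-of-ratios scale, which sets that median to 0, 1048 genes were higher and 1049 lower. Among the higher genes, 587 were at least 4-fold and 69 at least 64-fold higher.

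**Figure D2:**
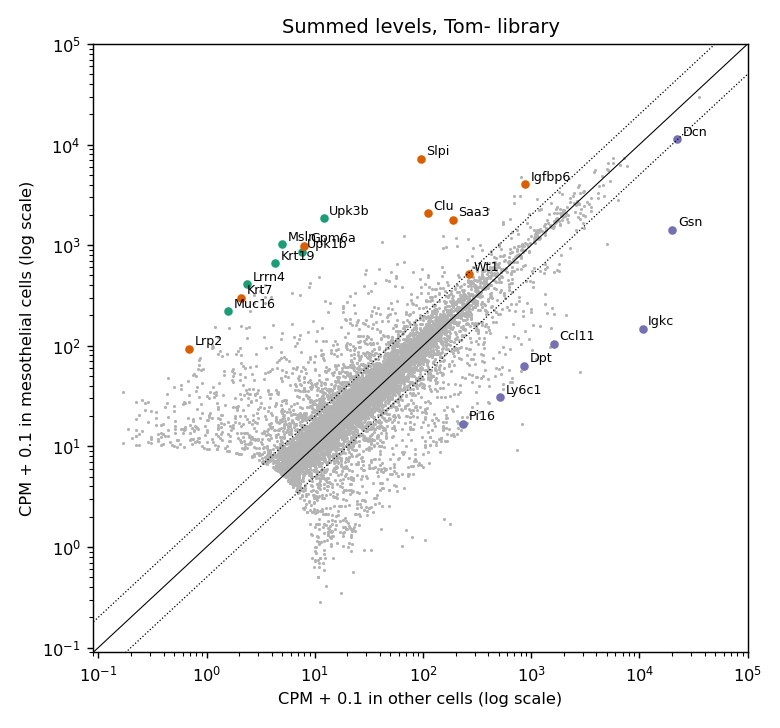
Summed level of each tested gene, CPM plus 0.1 in the other cells (x) and in the mesothelial cells (y) of the Tom- library, both on log scales, with a solid line of equal levels and dotted lines at 2-fold. The rule markers and Muc16 (green) and further mesothelial genes (orange) lie far above the line, and genes of the other cells (purple), such as Gsn, Ccl11 and Ly6c1, lie below it.

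Beyond the markers of the rule, the genes with the highest ratios at 50 CPM or more included an endocytic receptor, keratins and membrane proteins. Lrp2, the endocytic receptor megalin, was at 92.5 CPM in the members against 0.585 in the other cells, a log2 ratio of 7.30 (6.82 to 7.84). Krt7 was at 301 against 1.998 CPM (7.24), and Krt8 and Krt18, which pair to form the filaments of simple epithelia, at 398 against 3.39 CPM (6.88) and 346 against 3.01 CPM (6.84). Lgals2, a sugar-binding galectin, had a ratio of 7.11, and Gpm6a, a membrane protein of neurons and mesothelium, was at 980 against 7.92 CPM (6.95). Further genes among the 25 highest were Pkhd1l1, Palmd, Fxyd3, Pard6b, Tspan8, Prr15, Fam84a, Igfbp2, Stmn2, Tmem151a, Podxl, Cobl, Lgals7, Bcam, Lsr, Aqp5 and Mpzl2, with log2 ratios from 6.27 to 6.91 within this set. Without the barcodes in both libraries the 25 and the 5 rule markers kept log2 ratios of 6.20 to 7.63.

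The 15 most abundant transcripts of the mesothelial cells were mostly shared with the other cells. Because the assay counts 1 tag per molecule at the 3′ end, these levels do not depend on transcript length. Malat1, a nuclear noncoding RNA, was at 29392 CPM against 35908 in the other cells. Dcn, the proteoglycan decorin, was second at 11318 CPM, against 22264 CPM in the other cells. Slpi and Crip1 were the exceptions. Slpi, a secreted inhibitor of neutrophil proteases, was at 7225 CPM against 95.6, a log2 ratio of 6.24 (6.20 to 6.28). Crip1, a small LIM-domain protein, was at 4794 CPM against 800 (2.58). For the other 11, from Fth1 to Actg1, the log2 ratios lay between -0.32 and 0.55.

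**Figure D3:**
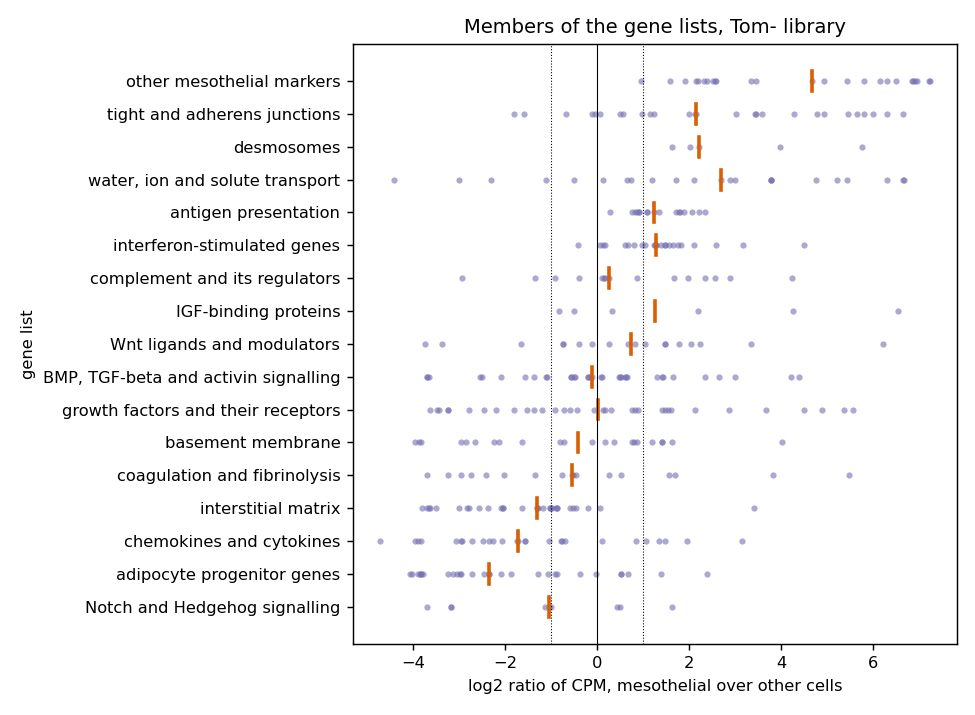
Log2 ratio of CPM, mesothelial over other cells of the Tom- library, for each tested gene of 17 lists (points), with the list median (orange bar) and dotted lines at 2-fold. Junction, desmosome and transport lists lie mostly to the right, and interstitial matrix, chemokine and progenitor lists mostly to the left.

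Of 27 further mesothelial genes 25 were tested, and 24 were at least 2-fold higher, with a median log2 ratio of 4.67. This list, like the others, was chosen with earlier results of these data known, so its count is a description. Igfbp6, which binds insulin-like growth factor 2, was at 4036 against 880 CPM, and Nkain4 at 1076 against 42.1. Wt1, the zinc finger factor of the coelomic lining, was the 1 that missed the limit, at 513 against 264 CPM, a log2 ratio of 0.96 (0.93 to 0.99). In the Tom+ library the 250 mesothelial cells had Wt1 at 478 CPM. Calb2, a calcium-binding protein used as a mesothelial marker in human tissue, had no UMI in either group, and a count of 0 allows up to 3 UMIs, or 0.0927 CPM in the members.

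Among 25 tested factors of the mesothelial and coelomic lineage, 6 were higher and 7 lower, with a median of 0.22. Over all tested genes 11.9% were higher and 9.2% lower, with a median of 0.14, which is the background for each list. Isl1, a LIM-homeodomain factor, was at 40.3 against 0.482 CPM (6.39), Bnc1, a zinc finger factor of epithelia, at 83.4 against 1.17 CPM (6.15), Sox6 at 82.5 against 1.45 CPM (5.83) and Hand2 at 59.9 against 2.17 CPM (4.79). Gata6 and Osr1, zinc finger factors of mesoderm, were at 266 against 79.9 CPM and 282 against 121 CPM. Tcf21, a helix-loop-helix factor of fibroblast precursors, was the lowest, at 12.6 against 195 CPM (-3.95).

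The genes of the epithelial barrier were mostly higher. Of 27 tested genes of tight and adherens junctions 18 were at least 2-fold higher and 2 lower, with a median of 2.15. Lsr, which marks corners where 3 cells meet, was at 155 against 1.96 CPM. Cldn10, a claudin that forms ion-selective pores, was at 478 against 10.9 CPM, Cldn15 at 252 against 23.1 CPM and Cldn3 at 94.9 against 3.44 CPM. Cdh11 was at 544 against 50.4 CPM. All 5 tested desmosome genes were higher, with Perp at 39.0 against 0.723 CPM and Jup, plakoglobin, at 63.1 against 15.6 CPM, while Cdh1, the E-cadherin of most epithelia, had 8 UMIs in all members. Of the microvillus and glycocalyx genes, 7 of 16 were higher and 2 lower, beside 11.9% and 9.2% of all tested genes. The higher ones included Ezr, ezrin, which ties membrane to actin, at 576 against 39.1 CPM, and Podxl at 63.9 against 0.758 CPM.

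Of 23 tested genes of water, ion and solute transport, 15 were higher and 4 lower, with a median of 2.69. Atp1b1, a sodium pump subunit, was at 389 against 28.1 CPM, Slc39a8, which imports zinc and manganese, at 384 against 8.83 CPM, and Ano1, a chloride channel, at 123 against 3.31 CPM. The water channels Aqp5 and Aqp1 were at 51.5 against 0.654 CPM and 20.6 against 2.57 CPM. Piezo1, a stretch-gated channel, was at 161 against 21.8 CPM.

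In both matrix lists more genes were lower than higher. Of 31 tested interstitial matrix genes 21 were lower and 1 higher, with a median of -1.30, and Fmod, the proteoglycan fibromodulin, was that 1, at 353 against 33.2 CPM. Col1a1 was at 929 against 2283 CPM and Fn1, fibronectin, at 258 against 1345 CPM. Of 22 basement membrane genes 5 were higher and 9 lower, with a median of -0.42. Lama5, a laminin chain of epithelia, was at 10.4 against 0.637 CPM, whereas Col4a1 was at 139 against 876 CPM and Lama2, a laminin chain of mesenchyme and muscle, at 11.3 against 160 CPM.

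Defence genes differed by family. Of 17 tested antigen presentation genes 11 were higher and none lower, with a median of 1.24, and H2-K1, a class I molecule, was at 2886 against 1130 CPM while the class II gene H2-Aa was at 126 against 30.1 CPM. H2 genes of the same class can be near copies of each other, so reads could be assigned wrongly among them. Of 24 interferon-stimulated genes 16 were higher and none lower, with a median of 1.28; Gbp2, a guanylate-binding protein, was at 381 against 63.9 CPM. Of 15 complement genes 6 were higher and 2 lower, beside 11.9% and 9.2% of all tested genes. Clu, clusterin, was at 2068 against 110 CPM and C2 at 959 against 161 CPM, while C3 was at 5681 against 5071 CPM, a log2 ratio of 0.16. Of 27 chemokine and cytokine genes 17 were lower and 5 higher, with a median of -1.73. Cxcl1, which draws neutrophils, was at 1038 against 4993 CPM and Ccl2, which draws monocytes, at 547 against 1610 CPM, whereas Il18 was at 186 against 21.0 CPM and Il33 at 211 against 54.8 CPM.

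Signalling genes were split. Among 34 tested growth factors and receptors 11 were higher and 12 lower. Fgf1 was at 417 against 8.87 CPM, Fgf9 at 82.6 against 2.77 CPM, and the receptors Kdr, for VEGF, and Met, for HGF, at 81.5 against 1.98 CPM and 48.9 against 2.15 CPM. Hgf itself was at 1.21 against 13.1 CPM, and Pdgfra and Pdgfrb were lower, at 51.4 against 282 CPM and 12.2 against 116 CPM. Of 18 Wnt genes 8 were higher and 3 lower, but this lean depended on the floor on level. With a floor of 1 CPM 9 were higher and 8 lower of 24, and with 20 CPM 3 and 3 of 10. Rspo1, which strengthens Wnt signals, was at 677 against 66.3 CPM and Wnt2b at 10.2 against 0.138 CPM. Of 35 genes of BMP, TGF-beta and activin signalling 9 were higher and 10 lower, with Bmp4 at 169 against 21.1 CPM and its target Id1 at 947 against 152 CPM. Igfbp5 was at 2066 against 109 CPM. Of 9 tested Notch and Hedgehog genes 6 were lower and 1 higher, with a median of -1.05. Smo, the Hedgehog transducer, was the higher one, at 103 against 33.6 CPM, and the lower ones included the receptor Notch1, at 1.51 against 13.8 CPM, and the Notch target Hes1, at 64.4 against 133 CPM.

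In the next lists genes differed in both directions. Of 10 tested retinoid genes 2 were higher and 3 lower. Aldh1a1 and Aldh1a2, which make retinoic acid, were at 613 against 148 CPM and 156 against 31.2 CPM, but Aldh1a3 was at 16.4 against 221 CPM. Of 21 genes of epithelial-mesenchymal transition 8 were higher and 7 lower, with Acta2, smooth muscle actin, at 416 against 35.9 CPM and Zeb2 at 74.0 against 287 CPM. Of 34 lipid genes 5 were higher and 8 lower, and of 28 redox genes 4 and 4, beside 11.9% higher and 9.2% lower over all tested genes; the shares of higher genes in both lists are near that background. Of 27 cell cycle genes 8 were tested, and 2 were higher and 1 lower. Mki67, a marker of dividing cells, was at 0.216 CPM (7 UMIs) against 1.33 CPM, while Cdk1, the kinase that drives mitosis, was found in 2.41% of thinned members (1.74 to 3.26) and 0.457% of the thinned other cells.

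Of the lists for other cell types, 3 summed higher in the members than in the other cells, namely the mural, the endothelial and the Schwann and neural list. Among the endothelial list, Cdh5 had 2 UMIs, Tie1 had 3 and Erg none in all members, while Kdr and Esam (153 against 2.38 CPM) were high. The list as a whole summed to 249 CPM in the members and 71.2 in the other cells. The immune list summed to 48.3 CPM against 108, with Ptprc, the CD45 gene, at 0.494 CPM and Csf1r as its most abundant gene at 12.3 CPM. The mural list summed to 659 CPM against 232, with Acta2 at 416 CPM, Tagln, another smooth muscle protein, at 158 against 55.6 CPM, and Rgs5 at 0.278 CPM. Of its 7 tested genes, however, 3 were at least 2-fold higher and 3 lower, with a median log2 ratio of -0.48. The Schwann and neural list summed to 96.2 CPM against 30.9, of which Mbp alone made 68.1 and 9.83 CPM. Adipocyte markers summed to 2.60 CPM, and of other epithelial markers Epcam was at 3.83 CPM and Krt5 at 0. That epithelial list summed to 151 CPM against 1496, of which Sult1e1 alone made 97.7 and 1494 CPM, so its other genes were higher in sum in the members. Most of that remaining sum in the members was Krt14, a keratin of layered epithelia, at 48.0 CPM against 0.344.

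Genes of adipocyte progenitors were mostly lower, 20 of 29 tested genes against 2 higher, with a median of -2.36 beside 0.14 over all tested genes. Dpp4 and Sema3c were the 2 higher, at 265 against 50.9 CPM and 240 against 92.0 CPM. Pi16, which marks early progenitors, was at 16.5 against 236 CPM, Ly6a, the gene of SCA1, at 213 against 1408 CPM, and Lpl, lipoprotein lipase, at 63.1 against 898 CPM. Cd34, a progenitor and endothelial surface protein, was at 417 against 291 CPM.

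For some genes of the other cells, a few members held most of the UMIs. For Gsn, the actin-severing protein gelsolin, the 5% of members with the highest counts held 66.0% of the UMIs, against 14.5% in the other cells, and for Ly6c1 79.4% against 26.1%. In the members as a whole Gsn was at 1416 CPM against 20213, a log2 ratio of -3.84. Without sub-cluster 4 and doublet calls it was at 415 CPM, a log2 ratio of -5.61. The 15 lowest genes outside the immunoglobulin group, namely Fbln7, Alkal2, Ly6c1, Pi15, Lrrc17, Arhgap24, Agt, Col15a1, Srpx2, Ccl11, Tcf21, Pla1a, Ace, Sparcl1 and Sult1e1, had log2 ratios of -4.17 to -3.93 with all members and of -6.59 to -5.33 without these cells. Ccl11, the eosinophil chemokine eotaxin, went from 105 to 29.7 CPM, against 1621 CPM in the other cells without doublet calls.

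The very lowest ratios were those of 10 genes of antibody-secreting cells, from -6.82 for Ighg2c to -5.63 for Jchain. Most of these UMIs sat in a few of the other cells. The 20 cells with the highest counts held from 67.4% to 99.1% of the other cells' UMIs of each gene, and barcodes shared between the libraries from 47.0% to 99.0%. Without the shared barcodes the log2 ratios ranged from -5.50 to 0.22, with Ighg1 at 0.22, Ighg2c at -0.05 and Ighg2b at -1.14. The members held Igkc at 147 CPM against 10725 in the other cells, with a UMI in 87.7% of members and 81.8% of the other cells, without thinning.

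tdTomato was at 8.25 CPM in the members (267 UMIs, 7.29 to 9.30) against 13.1 CPM in the other cells. In thinned cells a tdTomato UMI was found in 6.36% of members (5.25 to 7.63) and 10.4% of the other cells. Cdkn2a, the p16 gene that drives the reporter, was at 8.47 CPM (7.495 to 9.53) against 5.94 CPM, a log2 ratio of 0.51 (0.28 to 0.74), and was found in 5.01% of thinned members against 2.85% of thinned other cells. The Cdkn2a locus makes the p16 and Arf transcripts from separate starts, and 3′ counts cannot tell them apart. Of 24 genes of senescence and p53 targets 5 were higher and 1 lower, beside 11.9% and 9.2% of all tested genes, with a median of 0.29 beside 0.14: Igfbp5, Plaur at 332 against 23.4 CPM, Cdkn2b at 13.3 against 5.06 CPM, Hmgb2 and Ccng1, while Cdkn1a was at 287 against 274 CPM.

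Variation among the thinned members was measured gene by gene. The Fano factor (variance over mean) was set against the median of genes of like mean. Saa3, serum amyloid A3, stood at 72.7 times that median; it was found in 61.8% of members, ranged up to 488 UMIs and had 58.3% of its UMIs in the top 5% of members. Slpi stood at 55.5 times, ranging from 0 to 663 UMIs with a median of 28. Ifit1, an interferon target, was found in 15.02% of members but with up to 140 UMIs (32.0 times), and Iigp1, Rsad2 and Cxcl10 were also among the 20 highest. Gsn, described above, stood at 42.2 times, and at 21.3 times without doublet calls. Ccl2 (22.1 times), Cxcl2, Cxcl1 and Ccl7 were also in this set, as were Sult1e1, Igfbp5, Cd74, Malat1, Ctgf, Fos and Tagln. Iglc1 ranked first at 691 times, but came from 4.06% of members and up to 800 UMIs in 1 cell, and Ighm moved from rank 6 to 337 without doublet calls.

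The resolution of the clustering was raised in steps until at least 4 groups of 20 or more members came out. The number of groups therefore follows from this setting. The 4 groups are numbered and not named. The genes that lead each were used to make it, so their ratios are a description. Sub-cluster 1 (853 members) was led by Aqp5 (81.5 CPM), Cd44, Gatm, Wnt4, Krt14 and S100a4, of which Krt14 was found in 13.1% of its cells, beside 12.9% in sub-cluster 2 and 13.2% in sub-cluster 3. Sub-cluster 2 (505) was led by Ltbp2, a matrix protein that binds elastic fibres (89.1 CPM), Pdlim3, Saa3 (3995 CPM), Edn1, the vessel-constricting peptide endothelin 1, Txnip and Vegfc. Sub-cluster 3 (394) was led by Ces1d, a carboxylesterase (241 CPM), Spock3, Unc45b, Mroh2a, Lcn2, lipocalin 2 (399 CPM), and Chst4. Sub-cluster 4 (135) was led by Iglc1, Adamts4, Ebf2, Cxcl13, Penk and Postn, of which Iglc1 came from 7 and Cxcl13 from 12 of its 135 cells; it had 74.8% doublet calls, a median of 24215 UMIs and rule markers at 22.7 of 10000 UMIs.

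Cdkn2a differed between the sub-clusters, at 15.2 CPM (12.7 to 18.1) in sub-cluster 2, 8.52 (7.09 to 10.2) in 1, 4.16 (2.28 to 6.99) in 4 and 1.77 (0.882 to 3.16) in 3. It was found in 11.7% of cells of sub-cluster 2 and 1.78% of sub-cluster 3, without thinning. Its 125 UMIs in sub-cluster 2 came from 59 cells. tdTomato was at 10.7 CPM (8.59 to 13.2) in sub-cluster 2, 10.1 (7.005 to 14.1) in 4, 7.01 (5.72 to 8.51) in 1 and 6.90 (5.00 to 9.30) in 3, and of these intervals only those of sub-clusters 1 and 2 did not overlap. Muc16, on which no cell was selected, was at 247, 203, 217 and 143 CPM in sub-clusters 1 to 4, and Msln, a marker of the rule, at 1172, 1134, 796 and 499 CPM. When genes of the dissociation response, mitochondria and ribosomes were left out, 5 groups came out. Of these, 1 of 54 cells was led by Alcam, Angptl7, Eya4, Dsg2 and Krt14, the last at 375 CPM, and all 54 came from sub-cluster 1. Of the 505 members of sub-cluster 2, 329 stayed in 1 group. A further 100 joined the group with most of sub-cluster 1, and 76 the group with most of sub-cluster 3. Cdkn2a was not computed for these groups.

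**Figure D4:**
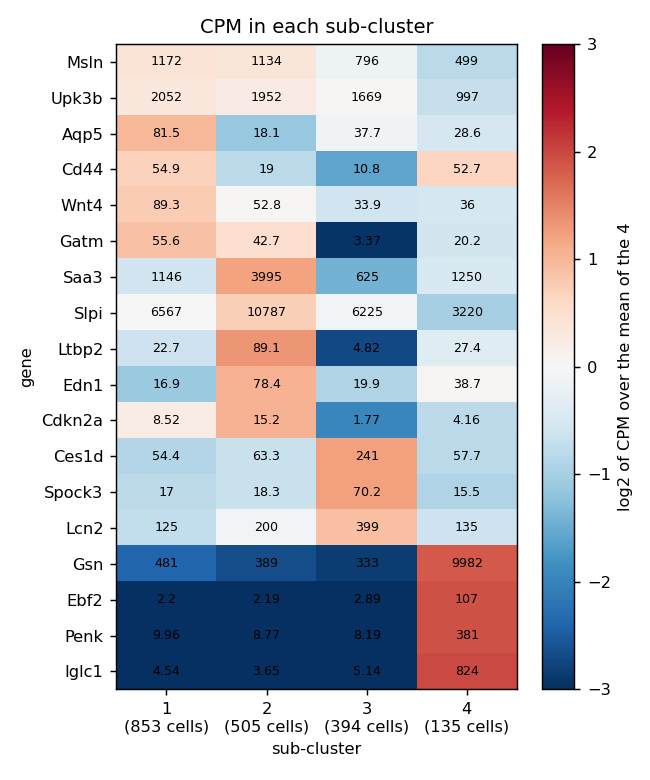
CPM of 18 genes in the 4 sub-clusters of the mesothelial cells (numbers), coloured by the log2 of the level over the mean of the 4. Saa3 and Cdkn2a are highest in sub-cluster 2 and lowest in sub-cluster 3, and Gsn, Ebf2 and Penk stand out in sub-cluster 4 at 9982, 107 and 381 CPM, while Iglc1 at 824 CPM there comes from 7 cells.

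The same comparison was made within the Tom+ library, whose mesothelial cells were chosen by the same marker rule. The 5 rule markers were therefore higher in both libraries by selection. In the Tom+ library 1344 of 10240 tested genes (13.1%) were at least 2-fold higher in the 250 mesothelial cells than in their own other cells, and 1031 (10.1%) at least 2-fold lower. Of the 1194 genes higher in the Tom- library 1059 were higher in both, or 88.7% of the Tom- and 78.8% of the Tom+ list. For lower genes this was 794, or 86.1% and 77.0%. Only Fcer1g and Ccl8 went past 2-fold in opposite directions. The overlap of the lists was not computed without the barcodes found in both libraries, which included those of 100 of the 250 Tom+ members.

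**Figure D5:**
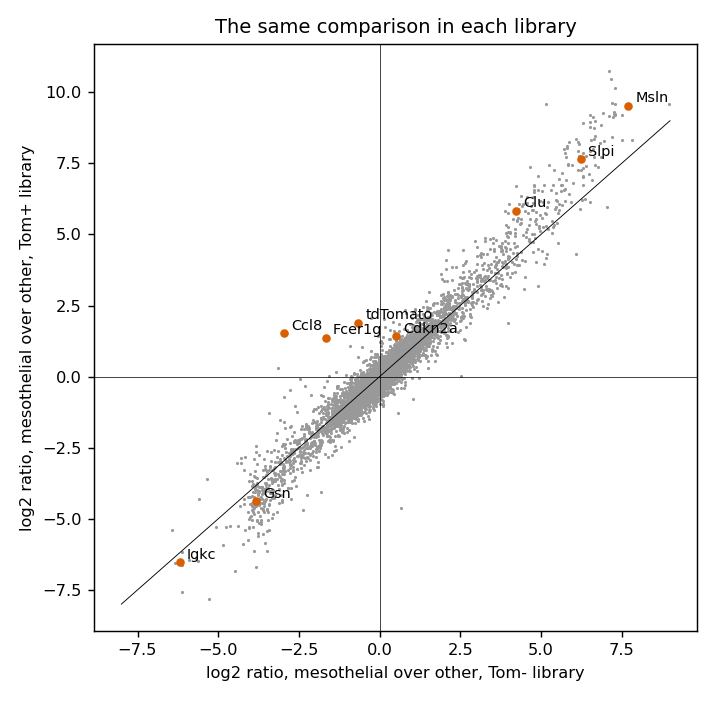
Log2 ratio of each gene tested in both libraries, mesothelial over other cells (x, Tom-; y, Tom+), with the line of equal ratios. Most genes follow the line, Msln and Slpi lie above it, and Ccl8 and Fcer1g lie in opposite directions in the 2 libraries.

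Between the mesothelial cells of the libraries, 69 of 10014 tested genes (0.689%) were at least 2-fold higher in Tom+ and 34 (0.34%) lower. Of the 250 Tom+ members, 100 had a barcode that was also in the Tom- library, and without the shared barcodes 55 genes were higher and 89 lower. The sort gate and the preparation cannot be told apart here. tdTomato, on which the cells were sorted, was at 780 CPM among Tom+ and 8.25 CPM among Tom- members, a log2 ratio of 6.56 (6.38 to 6.75). Cdkn2a was at 12.4 CPM (66 UMIs) among Tom+ members and 8.47 CPM among Tom- members, a log2 ratio of 0.55 (0.14 to 0.94). The other leading genes at 50 CPM or more included those of macrophages, Ccl8, Wfdc17, C1qc, Lyz2, C1qa and C1qb, with log2 ratios of 4.49 to 6.59. They were followed by the immunoglobulin genes Igkc (1.74) and Ighm (1.46) and by Gm42418 (0.79). The immune list held 8 genes tested between the libraries and all 8 were at least 2-fold higher in Tom+; their part in the other differences was not tested. Of the lowest, Ccl11, Sult1e1 and Gsn had log2 ratios of -1.58, -1.47 and -1.005. Without sub-cluster 4, which was taken out of the Tom- members only, these became 0.22, 0.63 and 0.74, and 106 genes were higher and 9 lower in Tom+. No like group was taken out of the 250 Tom+ members, and the part of this one-sided removal in the turned signs was not tested. Slpi was at 7487 CPM in Tom+ and 7225 in Tom-, a log2 ratio of 0.05.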

How the data were processed

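Gonadal adipose CD31- CD45- cells of the Tom+ and Tom- gates were measured in 1 droplet 3′ RNA library each. The deposited values are counts: per the labels and the study's methods, the authors aligned reads to mm10 with Cell Ranger 3.0.2 and deposited whole-number UMI counts per gene and barcode, without normalization. Analysis ran in Python 3.11.15 with scipy 1.17.1 and scanpy 1.11.5. The study's quality limits (genes above 1000 and below 7000, mitochondrial UMIs under 8%) were applied, and cells were split at 10 marker UMIs. UMIs were summed over cells and scaled to CPM. Genes averaging 5 CPM or more over both groups were compared, and a log2 ratio of at least 1 either way was counted. Levels have exact Poisson 95% intervals, and ratios and shares exact Clopper-Pearson ones, for counting error only. Depth was 96872394 UMIs in the Tom- and 61119807 in the Tom+ library. Named genes were the markers, list members, the 25 highest and 25 lowest ratios at 50 CPM or more, the 15 most abundant, the 20 largest relative Fano factors, and leaders of each sub-cluster and of the Tom+ over Tom- ratios. Members and lists were chosen with earlier results of these data known. Chromosome positions are from GENCODE vM21 and promoters from RefSeq. Doublets were scored with Scrublet and kept. On simulated data, all 200 of 200 genes changed 4-fold among 10018 were recovered with 0 false calls for the mesothelial over other cells comparison, and 197 of 200 overdispersed genes for the Fano step. Both simulations drew Poisson counts, with extra spread between cells only in the 200 genes of the Fano step. They held no doublets or RNA from outside the cells, so they check the computation and not the spread of the real data. Alternatives covered the marker limit, mitochondrial limit, doublets, cell weighting, scaling, the comparison cells and the CPM floor.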

Additional observations from a re-analysis of the deposited data

Results flagged for a closer look

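Fcer1g, a signalling chain of immune receptors, and Ccl8, a chemokine of macrophages, went past 2-fold in opposite directions in the libraries, and the difference was not tested. The log2 ratio of mesothelial over other cells was 1.37 for Fcer1g among Tom+ cells and -1.67 among Tom- cells, and for Ccl8 1.52 and -2.95. In the Tom+ members Fcer1g had 274 UMIs and Ccl8 620.

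Outside the quality limits, 25 of the 27 Tom- barcodes with 7000 or more genes met the marker limit, and they held the 5 rule markers at 4176 CPM. The barcodes with 1000 or fewer genes held the same markers at 657 CPM, against 30.8 CPM in the other cells that passed.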

How the results depend on the processing

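The number of members, and the numbers of genes at least 2-fold higher or lower, stayed within 1.5 times their values under every alternative run except the floor on level. With a floor of 1 CPM 1846 genes were higher and 1457 lower, and with 20 CPM 637 and 541, as fewer or more genes were tested. The count of genes past 2-fold in both libraries was 2787 and 1039 under those floors. Added after seeing the data, leaving out barcodes found in both libraries moved Ighg1 from -5.67 to 0.22, and the genes lower in Tom+ than in Tom- members from 34 to 89. Leaving out sub-cluster 4, in the Tom- members only, moved the genes higher in Tom+ from 69 to 106 and those lower from 34 to 9, and turned Ccl11 to 0.22, Sult1e1 to 0.63 and Gsn to 0.74. No like cells were taken out of the Tom+ members, and the cause of these moves was not tested. The 25 highest ratios stayed at least 2-fold higher under every alternative, and 23 of the 25 lowest stayed at least 2-fold lower, the exceptions being Ighg1 and Ighg2c. Of list medians, 415 values stayed within 0.1 and 115 moved further, and 11 values in 6 lists turned sign, all from medians of at most 0.74 in size. With a floor of 20 CPM the mural median went from -0.48 to 1.502 with 3 genes tested and the Wnt median from 0.74 to -0.035. No paired analysis was possible because no result comes from a test and there is 1 library per gate. Depth limits genes with few UMIs, such as Cdkn2a with 274 in the members.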

Other observations

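Of 17 tested coagulation genes 4 were at least 2-fold higher and 7 lower in the mesothelial cells, among them Plaur, the urokinase receptor, at 332 against 23.4 CPM, and its ligand Plau at 17.2 against 164 CPM. Of 15 genes of steroid and prostanoid metabolism 5 were higher and 3 lower, with Ptgis, prostacyclin synthase, at 974 against 207 CPM and Hsd11b1, which regenerates glucocorticoid, at 17.1 against 257 CPM. Of 34 genes of the dissociation response 3 were higher and 7 lower, beside 11.9% higher and 9.2% lower over all tested genes, with a median of -0.19. Hspb1, a small heat shock protein, was at 2280 against 399 CPM, and Socs3, an inhibitor of cytokine signalling, and Junb, an AP-1 factor, were at 266 against 907 CPM and 2829 against 6382 CPM. Of 8 keratin and intermediate filament genes 4 were higher and none lower, and of 6 IGF-binding proteins 3 and none. Of 9 surfactant and lubricant genes 5 were higher and 1 lower, with Lgals3, galectin 3, at 655 against 57.3 CPM. No lymphatic endothelial gene was tested, and that list summed to 4.20 CPM against 14.03. All 13 tested mitochondrially encoded genes stayed within 2-fold, with a median log2 ratio of -0.23. Of the hyaluronan synthases Has1 was at 322 against 557 CPM and Has2 at 2.47 against 48.0 CPM. Mbp, the myelin basic protein gene, was at 68.1 against 9.83 CPM, while the Schwann marker Sox10 had 2 UMIs in the members.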
